A study of Mus musculus with 2 samples.

Results

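The Hox genes described here are the 39 rows of the deposited count matrices whose symbol is Hoxa, Hoxb, Hoxc or Hoxd followed by digits only, out of 28001 features. They were chosen by name and not by a measured value. They comprise 11 Hoxa, 10 Hoxb, 9 Hoxc and 9 Hoxd genes. In the GENCODE vM21 annotation of mouse genome GRCm38 (mm10), the Hoxa genes lie on the minus strand of chromosome 6, the Hoxb genes on the plus strand of chromosome 11, the Hoxc genes on the plus strand of chromosome 15 and the Hoxd genes on the plus strand of chromosome 2.

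Hox genes encode homeodomain transcription factors, and their order along each cluster follows the order in which they are used along the body axis. Members are numbered from the 3′ to the 5′ end of the cluster, and genes with the same number in different clusters are paralogs. In mouse limb development the 5′ genes of the Hoxa and Hoxd clusters are used in the distal limb, where Hoxa13 and Hoxd13 are needed to form the digits, and Hoxc13 is needed for normal nails and hair.

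The study profiled regenerating digit tips of mice 14 days after amputation by droplet single-cell RNA sequencing. One library came from Lmx1bCreERT2;R26-LSL-TdT mice and the other from PdgfraCreERT;R26-LSL-TdT mice, aged 10 to 12 weeks. Both lines received 3 mg of tamoxifen a day by intraperitoneal injection for 4 days, and digits were amputated 10 days later. In both lines tdTomato is switched on only in cells in which the named Cre was active under tamoxifen, and it stays on in their descendants, so the label records past and not present activity of the driver. The labels name no number of animals per library and no unamputated library was analysed here. With 1 library per line there is no replicate, no test was made, and every interval below is an exact 95% interval that covers the counting error of unique molecular identifiers (UMIs) only.

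After filtering, the Lmx1b library held 2747 cells and the Pdgfra library 2308, with medians of 17111 and 9805.5 UMIs per cell. The libraries shared 10 barcodes, 1 of them among kept cells. Cells were clustered with the Hox genes left out, and clusters were named from marker lists. The endothelial list summed to 7479 CPM, which is UMIs of the listed genes per 1000000 UMIs of the class, in endothelial cells of the Lmx1b library and 6608 CPM in those of the Pdgfra library, against 52 and 115 CPM in mesenchymal cells. The list of pericytes and smooth muscle cells, together called mural cells here, summed to 29065 and 21992 CPM in that class, against 833 and 1066 CPM in mesenchymal cells. The hard keratin nail list summed to 3089 and 6875 CPM in its class, against 4 and 30 CPM in mesenchymal cells, but the mesenchymal list also summed to 46180 CPM in the hard keratin cells of the Lmx1b library, compared with 3166 CPM in the same class of the Pdgfra library. A further 202 and 329 cells had no name.

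Of the 39 Hox genes, 27 reached 5 CPM in at least 1 class of 30 or more cells. The other 12, among them Hoxa2, Hoxb13, Hoxc4, Hoxd3 and Hoxd12, had highest class levels between 0.22 CPM for Hoxb1 and 4.42 CPM for Hoxc12. No member was without a UMI. For 21 of the 27, the same class was highest in both libraries. Hoxa11 was highest in mesenchymal cells of the Lmx1b library and in mural cells of the Pdgfra library. The others, Hoxc6, Hoxc8, Hoxc9, Hoxc10 and Hoxc11, were highest in epithelial cells of the Lmx1b library. That class had 10 cells in the Pdgfra library and was not ranked there. These counts describe the matrices, since a member passed 5 CPM only through a class in which it was high. The annotation overlaps 12 members with another gene on the same strand (Hoxa2, Hoxa3, Hoxa4, Hoxa5, Hoxa6, Hoxc5, Hoxc6, Hoxc8, Hoxc9, Hoxc10, Hoxd3 and Hoxd4), so their counts are less certain than those of the others.

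**Figure D1:**
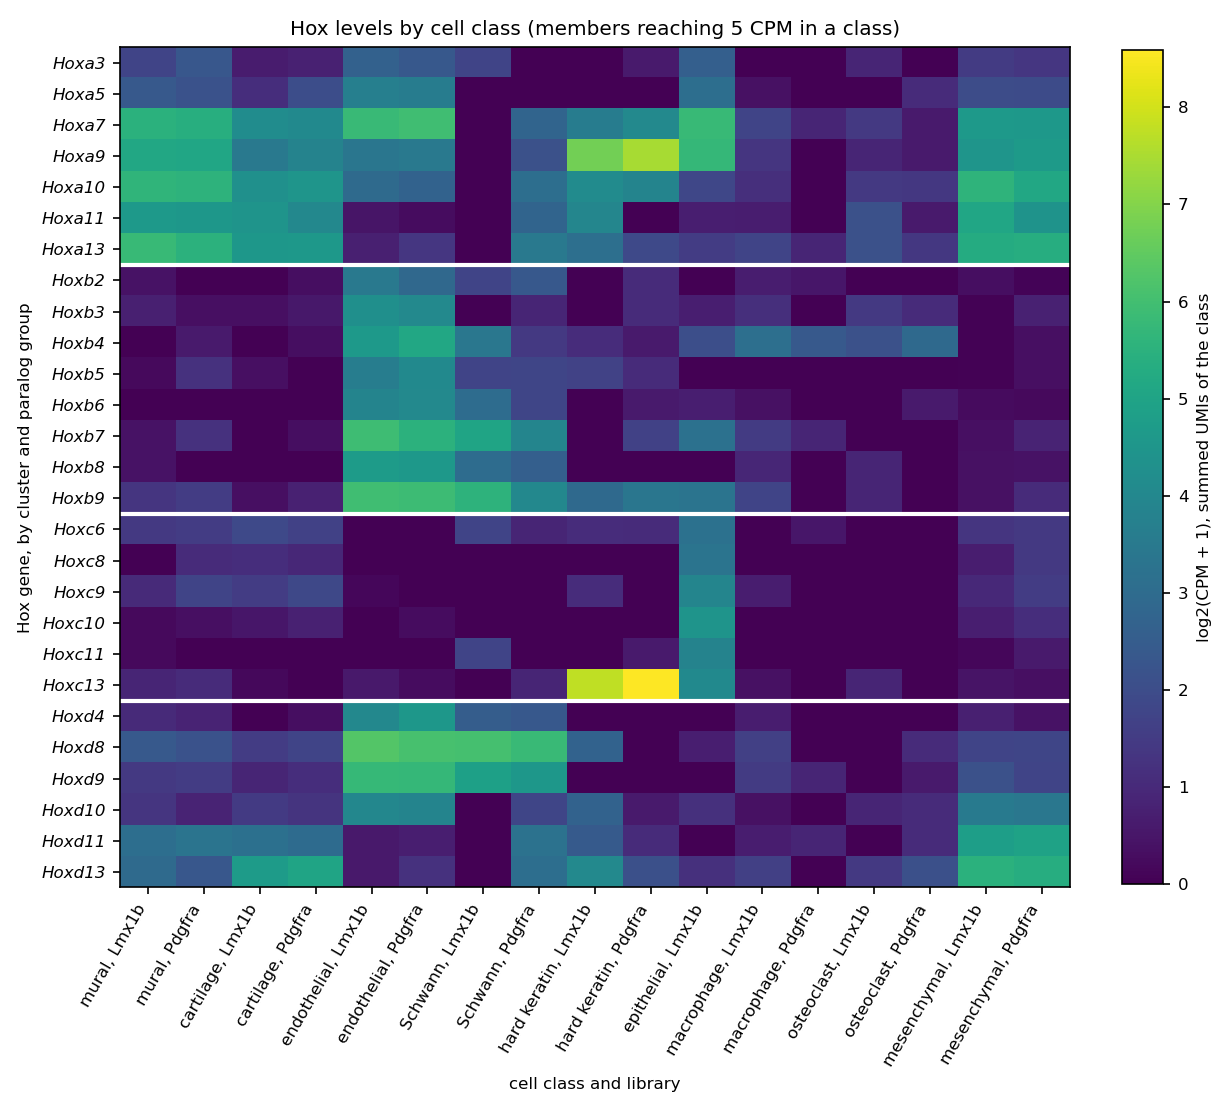
Levels of the 27 Hox genes that reached 5 CPM in a class, as log2(CPM + 1) of the summed UMIs, with genes as rows and cell classes of 30 or more cells in each library as columns. Hoxb genes with Hoxd8 and Hoxd9 fill the endothelial columns, Hoxc13 and Hoxa9 the hard keratin columns, and the 5′ Hoxa and Hoxd genes the mesenchymal columns on the right.

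Mesenchymal cells, the class that holds the fibroblasts, blastema cells and osteoblasts of the digit tip, used mainly the 5′ Hoxa and Hoxd genes, with Hoxa7 beside them. Hoxa genes made up 63.5% (95% Clopper-Pearson interval 62.3 to 64.6) of their Hox UMIs in the Lmx1b library, and 59.7% (58.2 to 61.1) of those in the Pdgfra library. Hoxd genes made up 33.7% and 35.5%, Hoxc genes 2.1% and 3.3%, and Hoxb genes 0.6% and 1.6%. Paralog groups 9 to 13 held 85.2% and 84.4% of the Hox UMIs, and group 13 alone 30.6% and 32.5%. Both libraries gave the same order of clusters, with Hoxa first and Hoxd second.

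Hoxd13 reached 43.5 CPM (40.9 to 46.1) in the Lmx1b library and 40.1 CPM (37.3 to 43.1) in the Pdgfra library. Hoxa13 reached 38.2 CPM (35.9 to 40.7) and 40.1 CPM (37.2 to 43.1). The intervals of the 2 genes overlap in the Pdgfra library and nearly meet in the Lmx1b library. Hoxa10, which with Hoxa11 and Hoxd11 patterns the more proximal limb segments in the mouse embryo, stood at 46.8 and 34.3 CPM. Hoxd11 stood at 27.0 and 30.2 CPM, Hoxa7 at 24.3 and 23.0 CPM, Hoxa9 at 21.5 and 24.5 CPM, and Hoxd10 at 10.5 and 9.48 CPM. Between Hoxd11 and Hoxd13, Hoxd12 was at only 2.83 and 2.94 CPM.

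The upstream sequences of 3 members are shown because their levels separate the cell classes: Hoxa13 and Hoxd13, which part company in mural cells, and Hoxd8, the highest Hox gene of endothelial cells in both libraries. Each is the 250 bases before the RefSeq gene start in GRCm38.p6, given 5′ to 3′ on the strand of the gene: chr6:52260881-52261130 on the minus strand for Hoxa13, chr2:74667975-74668224 on the plus strand for Hoxd13, and chr2:74704365-74704614 on the plus strand for Hoxd8. Capitals mark the CCAAT box motif, searched as CCAAT, and in Hoxd13 also the TATA motif, searched as TATAAA, each on both strands.
Hoxa13: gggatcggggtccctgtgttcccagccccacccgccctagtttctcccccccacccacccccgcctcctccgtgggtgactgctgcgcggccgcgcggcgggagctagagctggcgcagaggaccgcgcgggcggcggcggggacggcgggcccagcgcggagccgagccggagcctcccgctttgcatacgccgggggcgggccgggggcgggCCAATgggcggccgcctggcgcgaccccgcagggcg
Hoxd13: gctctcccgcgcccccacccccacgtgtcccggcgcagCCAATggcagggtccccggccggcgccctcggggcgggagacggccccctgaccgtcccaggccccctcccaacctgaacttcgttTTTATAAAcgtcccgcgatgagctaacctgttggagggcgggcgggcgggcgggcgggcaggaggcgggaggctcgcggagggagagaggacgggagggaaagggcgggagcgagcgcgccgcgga
Hoxd8: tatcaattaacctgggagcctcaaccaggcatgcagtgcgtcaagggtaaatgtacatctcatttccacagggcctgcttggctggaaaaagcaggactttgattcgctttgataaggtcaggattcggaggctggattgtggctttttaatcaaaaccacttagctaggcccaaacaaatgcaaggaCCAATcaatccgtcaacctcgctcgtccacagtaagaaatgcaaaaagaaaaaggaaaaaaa
The windows of Hoxa13 and Hoxd13 had a GC content of 80.0% and 74.4%, with 35 and 31 CpG dinucleotides, and that of Hoxd8 had 44.4% and 6. Over all 32851 windows of that table the medians were 52.4% and 6. RefSeq windows were found for 22 of the 39 members, in 24 windows. Of these 24, 58.3% held CCAAT, against 33.8% of all windows, and 16.7% held TATAAA, against 12.4%. The HOX13-type motif CAATAAA was in 4.17% of the member windows and 4.20% of all windows, and the PBX-HOX-type motif TGATTNAT in 8.33% and 2.82%. A match describes the letters of the window and is not a measured binding site.

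Mural cells kept the mesenchymal use of Hoxa but had little of Hoxd. Hoxa genes made up 87.5% (85.6 to 89.1) of the Hox UMIs in mural cells of the Lmx1b library and 85.7% (83.2 to 88.0) in those of the Pdgfra library, while Hoxd genes made up 9.35% (7.90 to 10.97) and 8.5% (6.7 to 10.6). The totals were close to those of mesenchyme, with 246 and 233 CPM of Hox UMIs in mural cells against 269 and 248 CPM in mesenchymal cells.

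Genes were compared between a class and the mesenchymal cells of the same library where the mean of both sides was at least 5 CPM, and counted where they differed by more than 1.5-fold. A gene under 5 CPM on 1 side was measured only through the other side, where it was higher, so such counts only describe the matrices. In mural cells 2 of 8 measured Hox genes were higher and 3 lower in the Lmx1b library, and 1 of 8 was higher and 3 lower in the Pdgfra library. Of all measured genes, 23.9% and 19.4% were higher and 14.4% and 14.5% lower. The same 3 genes were lower in both libraries, and all belong to the Hoxd cluster. Hoxd13 was at 6.81 CPM (40 UMIs) in mural cells against 43.5 CPM in mesenchymal cells of the Lmx1b library, 6.39-fold lower (4.66 to 8.99). In the Pdgfra library it was at 4.02 CPM (15 UMIs) against 40.1 CPM, 9.99-fold lower (6.02 to 17.9). Hoxd11 was 3.52-fold (2.60 to 4.87) and 3.42-fold (2.41 to 5.02) lower, and Hoxd10 6.86-fold (3.56 to 15.2) and 11.8-fold (3.97 to 57.8, 3 UMIs) lower. Hoxd12 had no UMI in mural cells of either library. Hoxa13, in contrast, was at 54.1 and 44.7 CPM in mural cells against 38.2 and 40.1 CPM in mesenchymal cells, and Hoxa7 at 43.6 and 41.0 CPM against 24.3 and 23.0 CPM, 1.79-fold (1.54 to 2.08) and 1.78-fold (1.47 to 2.15) higher. With stricter cell limits of 1000 genes and 5% mitochondrial UMIs, and the cells clustered again, the mural over mesenchymal fold in the Lmx1b library was 0.833 for Hoxd13 and 0.746 for Hoxd11. The mural class then held 72 cells, 13 of them named Angpt2 fibroblasts under the main filter.

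The difference between Hoxa13 and Hoxd13 in mural cells was also present per cell at equal depth. With each cell thinned to 5000 UMIs, a Hoxa13 UMI was found in 19.5% and 15.6% of mural cells, and a Hoxd13 UMI in 3.31% and 1.89%. In mesenchymal cells the shares were 18.1% and 16.7% for Hoxa13 and 19.2% and 16.3% for Hoxd13. In macrophages, which should lack both genes, the Hoxa13 share was 0.826% of 121 cells and 0% of 110 cells, and the Hoxd13 share 1.65% and 0%, where 0 of 110 cells allows up to 3.30%. The mural Hoxd13 share lies within the counting interval of the macrophage share, whose upper ends are 5.84% and 3.30% from 2 and 0 macrophages, while the mural Hoxa13 share lies above the macrophage interval. Erythroid barcodes held more Hox RNA than macrophages, 321 and 180 CPM from 26 and 48 UMIs, with Lum, of the mesenchymal list, at 5838 and 6754 CPM. Only 2 and 4 of them reached 5000 UMIs, too few for a share. The level of free RNA in mural cells was not tested. The median depths before thinning were 15135 and 10761 UMIs in mural cells, 24022.5 and 20528 in macrophages, and 25930 and 26509 in mesenchymal cells. Without thinning the mural shares were 46.8% and 34.7% for Hoxa13 and 6.68% and 4.10% for Hoxd13.

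Mural cells were not uniform in the Lmx1b library. In 59 cells of a cluster led by Mstn, Kcnk3 and Enpep, 6 of 7 measured Hox genes were higher than in the other mural cells, beside 16% of all measured genes, with none lower beside 22.7%. Hoxa13 was at 98.6 CPM in that cluster against 46.2 CPM in the other mural cells, 2.14-fold higher (1.65 to 2.74). Hoxd13 was at 16.8 CPM against 5.02 CPM, 3.35-fold higher (1.64 to 6.60), and Hoxa10 at 82.9 CPM against 42.1 CPM. Fmo2, a gene of the Angpt2 fibroblast list, was also among the leading genes of that cluster. Lum and Dcn, of the mesenchymal list, were at 373 and 681 CPM in it, against 209 and 223 CPM in all mural cells of that library. The part of fibroblast RNA in these values was not tested. The Pdgfra library held 3 cells of that cluster, too few to compare.

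The larger cluster of the cartilage class was led by Col2a1, but Ibsp, a marker of the bone lineage, was also among its leading genes. Col1a1, of the mesenchymal list, was at 65354 and 46390 CPM in the cartilage class, against 56523 and 36322 CPM in mesenchymal cells. The part of bone lineage RNA in the cartilage values was not tested. Cartilage cells had a lower total, 139 and 146 CPM. Hoxa made up 66.6% and 63.5% of it and Hoxd 27.2% (24.4 to 30.2) and 30.1% (26.5 to 33.9), against Hoxd shares of 33.7% and 35.5% in mesenchyme. Hoxc made up 5.42% and 5.07%, against 2.1% and 3.3% in mesenchyme. Of 8 measured Hox genes, the Lmx1b library had 7 lower than in mesenchymal cells and the Pdgfra library 5, with none higher. Of all measured genes, 33.9% and 33.2% were lower and 6.92% and 7.86% higher. The median log2 difference of the measured Hox genes was -0.90 and -0.72, against -0.36 and -0.34 over all measured genes. Hoxd13 was the least reduced of the 5′ Hoxd genes, at 25.01 and 31.4 CPM in cartilage against 43.5 and 40.1 CPM in mesenchyme, 1.74-fold and 1.28-fold lower. Hoxd11 was 3.39-fold and 4.35-fold lower, and Hoxd10 6.06-fold and 6.59-fold lower. Hoxa10 was 2.47-fold lower in the Lmx1b library and 1.61-fold lower in the Pdgfra library, and the second of these fell under 1.5-fold under several alternatives.

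**Figure D2:**
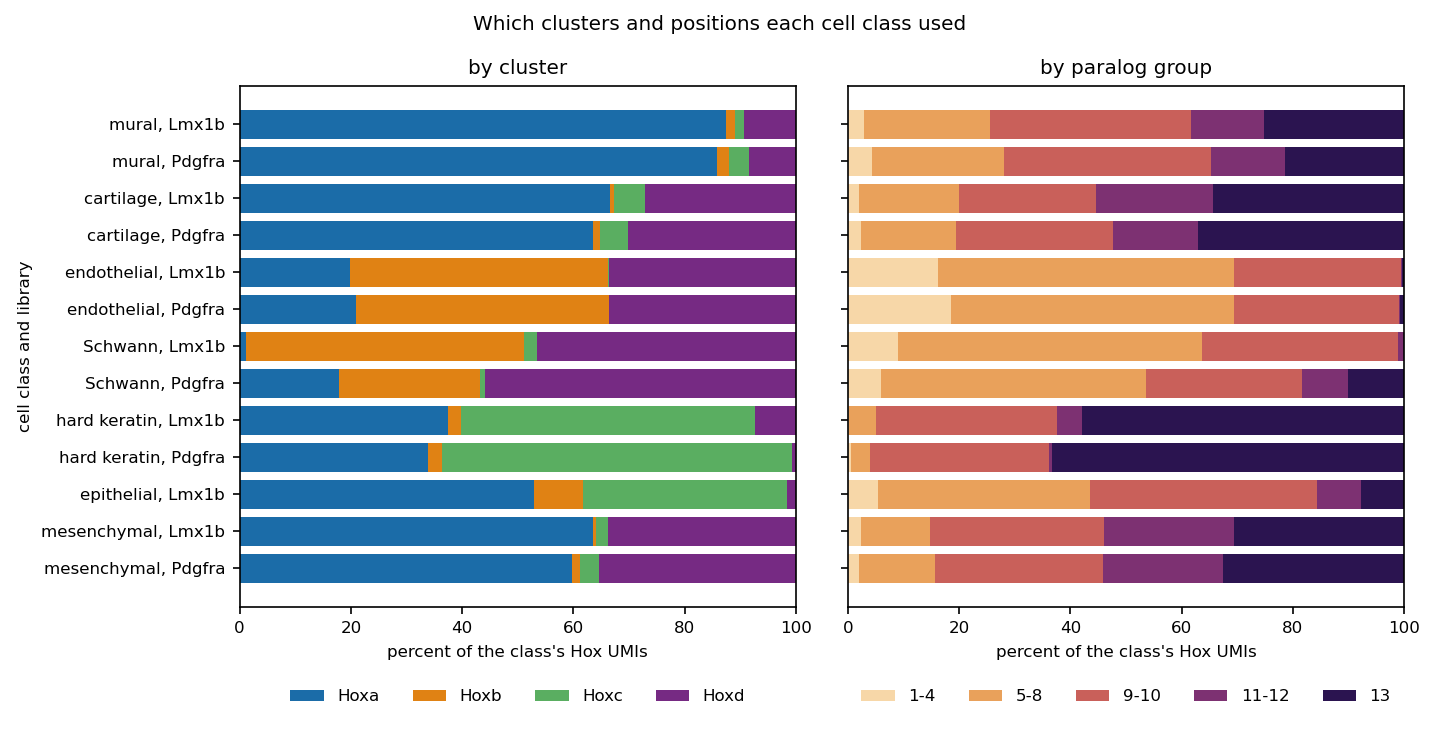
Percent of the Hox UMIs of each cell class and library that came from each cluster (left) and from each paralog group (right). Hoxa fills 87.5% and 85.7% of the mural bars, Hoxb 46.4% and 45.4% of the endothelial bars and Hoxc 52.8% and 62.8% of the hard keratin bars, while group 13 falls to 0.4% and 0.7% in endothelial cells against 30.6% and 32.5% in mesenchymal cells.

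Endothelial cells used another part of the clusters. Their Hox genes summed to 482 and 470 CPM, spread over 17 and 16 genes of at least 5 CPM, against 269 and 248 CPM over 8 genes in mesenchymal cells of both libraries. Hoxb genes made up 46.4% and 45.4% of the endothelial Hox UMIs, Hoxd genes 33.6% in both libraries, Hoxa genes 19.8% and 20.98%, and Hoxc genes 0.1% in both. Groups 5 to 8 held 53.3% and 50.9%, and group 13 held 0.4% and 0.7%.

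In endothelial cells 13 of 20 measured Hox genes were higher and 6 lower than in mesenchymal cells of the Lmx1b library, and 12 of 19 were higher and 6 lower in the Pdgfra library. Of all measured genes, 34.1% and 34.6% were higher, and 17.6% of those in each library were lower. The median log2 difference of these Hox genes was 3.20 and 3.27, against 0.31 and 0.30 over all measured genes. Only 8 Hox genes were at 5 CPM or more in mesenchymal cells of each library. The other measured Hox genes passed the mean of 5 CPM only through their endothelial level, so this median, like the counts, only describes the matrices. The highest endothelial gene was Hoxd8, with 77.4 CPM against 2.43 CPM in mesenchymal cells of the Lmx1b library and 66.7 CPM against 2.45 CPM in the Pdgfra library, 31.8-fold (24.5 to 42.0) and 27.2-fold (19.8 to 38.1) higher. Hoxd9 was at 52.8 and 51.8 CPM in endothelial cells, 15.6-fold (12.4 to 19.9) and 21.6-fold (15.6 to 30.6) above mesenchymal cells. Hoxb9 was at 60.9 and 57.6 CPM and Hoxb7, whose mesenchymal level was close to 0, at 59.7 and 44.5 CPM, 214-fold (103 to 535) and 54.5-fold (32.3 to 99.2) higher. Other Hoxb genes were lower, with Hoxb8 at 25.5 and 23.0 CPM, Hoxb4 at 24.0 and 34.6 CPM, Hoxb3 at 18.6 and 15.5 CPM, Hoxb6 at 13.7 and 15.5 CPM, Hoxb5 at 11.5 and 15.7 CPM and Hoxb2 at 9.98 and 6.42 CPM. Hoxd4 was at 14.98 and 22.4 CPM, Hoxa5 at 12.1 and 11.1 CPM and Hoxa3 at 5.29 and 4.21 CPM.

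Hoxa13 was at 0.699 and 1.55 CPM in endothelial cells, 54.7-fold (26.5 to 136) and 25.9-fold (12.5 to 64.5) below mesenchymal cells. Hoxd13 was at 0.499 and 1.33 CPM, 87.1-fold (37.2 to 269) and 30.2-fold (13.8 to 82.6) lower. Hoxd11 was 54.0-fold and 45.5-fold lower, and Hoxa10 6.90-fold and 6.19-fold lower. The break within the Hoxd cluster lay between Hoxd10 and Hoxd11: Hoxd10 was at 14.6 and 13.5 CPM in endothelial cells against 10.5 and 9.48 CPM in mesenchymal cells, which is under 1.5-fold. Within the Hoxa cluster Hoxa7 was at 56.2 and 60.5 CPM in endothelial cells, 2.31-fold (2.06 to 2.59) and 2.63-fold (2.25 to 3.07) higher, whereas Hoxa9 was 2.31-fold and 2.41-fold lower.

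At 5000 UMIs per cell, Hoxd8 was found in 33.6% and 33.3% of endothelial cells against 1.21% and 1.95% of mesenchymal cells, and Hoxb9 in 22.2% of endothelial cells of both libraries against 0.241% and 0.584% of mesenchymal cells. Hoxa13 was found in 0.712% and 1.65% of endothelial cells. At least 1 Hox UMI was found in 90.0% and 89.3% of thinned endothelial cells and in 68.2% and 67.9% of thinned mesenchymal cells. The median depths before thinning were 12596.5 and 11244 UMIs in endothelial cells.

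Single endothelial clusters were set against the other endothelial cells of the same library. In the cluster led by Vwf, Selp, Sele and Ackr1, genes of venous endothelium, Hoxb4 was at 32.5 CPM against 16.2 CPM in the other endothelial cells of the Lmx1b library and 41.8 CPM against 26.8 CPM in the Pdgfra library, 2.00-fold (1.53 to 2.64) and 1.56-fold (1.12 to 2.20) higher. In the Lmx1b library 3 of 17 measured Hox genes differed there, with 15.9% of all genes, and in the Pdgfra library 2 of 16, with 17.7%. The counts for that cluster were thus near the share of all genes. In the cluster led by Cldn5, Ptprr and Gja4, 10 of 17 measured Hox genes were higher and 1 lower in the Lmx1b library, beside 12% and 19.5% of all genes. Hoxd9 there was at 106 CPM against 48.6 CPM, 2.18-fold higher (1.69 to 2.77). In the Pdgfra library, with 27 cells in that cluster, 2 of 16 were higher and 2 lower, beside 12.9% and 22.8% of all genes, and Hoxa5 was at 25.2 CPM against 9.57 CPM. The high count of the Lmx1b library was thus not seen in the Pdgfra library.

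**Figure D3:**
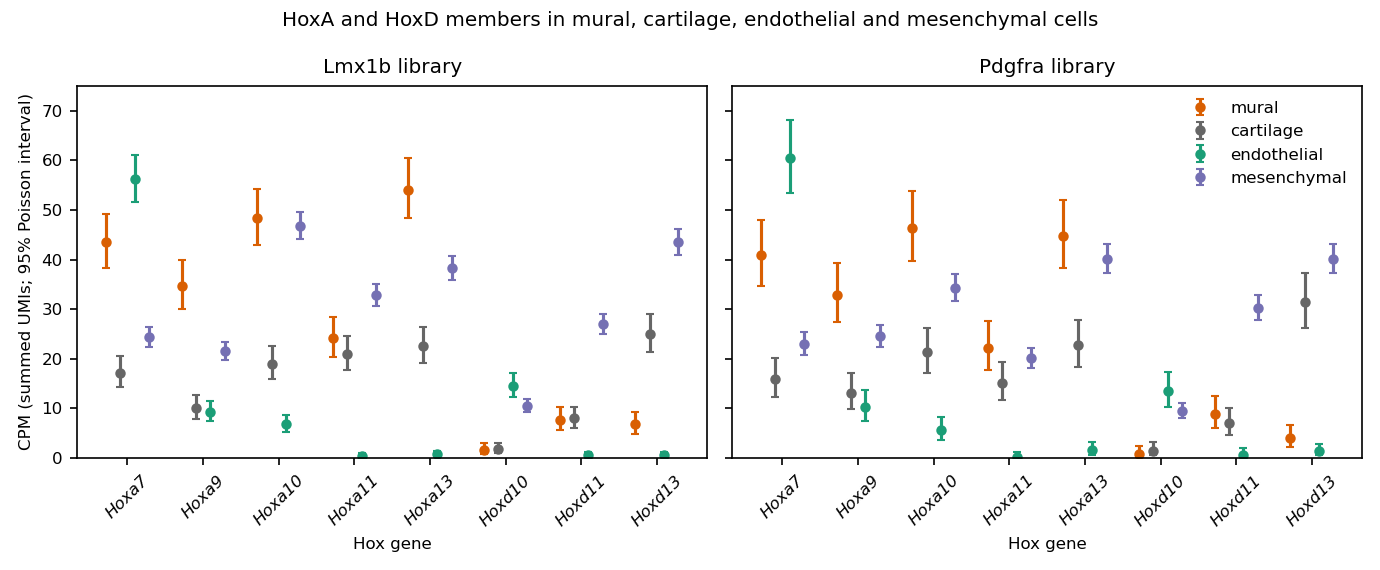
Summed CPM of 5 Hoxa and 3 Hoxd genes in mural, cartilage, endothelial and mesenchymal cells of each library, where points are levels and bars are exact 95% Poisson intervals. The mural points lie at 54.1 and 44.7 CPM for Hoxa13 but at 6.81 and 4.02 CPM for Hoxd13, and the endothelial points lie above the mesenchymal points at Hoxa7 and near 0 at Hoxa13, Hoxd11 and Hoxd13.

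Schwann cells, the glia of peripheral nerves, had Hoxd8 as their highest Hox gene in both libraries, as did endothelial cells. Hoxd8 was at 64.8 and 55.9 CPM in Schwann cells, 26.7-fold (16.3 to 42.6) and 22.8-fold (15.4 to 34.0) above mesenchymal cells, and Hoxd9 was at 28.8 and 22.5 CPM, 8.51-fold and 9.40-fold above them. Of 12 measured Hox genes 4 were higher and 8 lower than in mesenchymal cells in both libraries. Of all measured genes, 43.9% and 37.1% were higher and 16.9% and 14.4% lower. Hoxa13 and Hoxd13 had no UMI in the 36 Schwann cells of the Lmx1b library and were therefore at least 5.31-fold and 6.04-fold lower, with the floor set at 3 UMIs over the class. In the 102 Schwann cells of the Pdgfra library they were at 10.0 and 7.51 CPM, 4.00-fold and 5.35-fold lower. The mesenchymal list summed to 4823 CPM in Schwann cells of the Lmx1b library, compared with 9170 CPM in the Pdgfra library, and Lum, a mesenchymal proteoglycan, was at 110 and 1322 CPM. The part of such RNA in the Hoxa13 and Hoxd13 counts was not tested. Set against endothelial cells, Schwann cells had 12 of 14 measured Hox genes lower and none higher in the Lmx1b library, and 14 of 17 lower and 1 higher in the Pdgfra library. Of all genes, 21.7% and 19.5% were lower and 30.2% and 26.2% higher. Hoxd8 was within 1.5-fold of the endothelial level in both, and Hoxa7 was 10.4-fold lower in the Pdgfra library.

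Hard keratin nail cells, which build the nail plate, used Hoxc13, a regulator of hair and nail keratin genes, and Hoxa9. Hoxc13 was at 219 CPM (189 to 252) in the Lmx1b library and 384 CPM (356 to 414) in the Pdgfra library, 611-fold (315 to 1356) and 1411-fold (602 to 4359) above mesenchymal cells. In mural, cartilage, endothelial, Schwann, macrophage and osteoclast cells Hoxc13 was at 1.07 CPM or less in both libraries. Hoxa9 was at 107 and 176 CPM in hard keratin cells, 4.97-fold (3.96 to 6.19) and 7.17-fold (6.19 to 8.29) above mesenchymal cells. Hoxc genes made up 52.8% and 62.8% of the Hox UMIs of the class, and group 13 made up 57.8% and 63.3%. Groups 9 to 13 held 94.96% and 96.1%, against 85.2% and 84.4% in mesenchymal cells, mainly through Hoxc13 and Hoxa9 and not through Hoxa13 and Hoxd13.

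Of the measured Hox genes, 2 of 9 were higher and 7 lower than in mesenchymal cells of the Lmx1b library, and 3 of 10 higher and 6 lower in the Pdgfra library. Of all genes, 18.3% and 27.8% were higher and 24.5% and 29.6% lower. Hoxa13 was at 7.78 and 2.74 CPM, 4.91-fold and 14.6-fold lower, and Hoxd13 at 15.6 and 3.29 CPM, 2.79-fold and 12.2-fold lower. Hoxa11 was at 14.4 CPM and 0 UMIs. In the Lmx1b library, a cluster of 16 cells supplied 491321 of the 899725 UMIs of the class, and it held Col1a1 at 65788 CPM and Lum at 3566 CPM. The other 60 cells, of the cluster that also holds 134 cells of the Pdgfra library, had Lum at 164 CPM, against 297 CPM in those 134. In the 60 cells Hoxc13 was at 394 CPM (336 to 460) and Hoxa9 at 171 CPM (134 to 217), against 365 CPM (330 to 404) and 147 CPM (125 to 172) in the 134 cells, with overlapping intervals. The 60 cells held 1 UMI of Hoxa13 and none of Hoxd13 or Hoxa11. Without the cluster of the 16 cells, an alternative chosen after seeing the data, the hard keratin over mesenchymal fold in the Lmx1b library was 1099.8 for Hoxc13 and 7.98 for Hoxa9. At 5000 UMIs per cell Hoxc13 was found in 55.2% of 29 cells and 84.6% of 52 cells, against 0.362% and 0% of mesenchymal cells. Of those 29 cells, 15 belonged to the cluster of 16 cells with high Col1a1 and Lum, and 14 to the other cluster. The median depth of the class was only 2726 and 2735.5 UMIs, so the thinned shares rest on its deeper cells, and without thinning they were 44.7% and 52.3%.

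Other epithelial cells numbered 100 in the Lmx1b library but 10 in the Pdgfra library, and were read only where there were 100. There Hoxa7 was at 54.2 CPM and Hoxa9 at 51.7 CPM, and the Hoxc cluster was used over much of its length: Hoxc10 at 20.8 CPM, Hoxc13 at 15.8 CPM, Hoxc9 at 13.9 CPM, Hoxc11 at 13.2 CPM, Hoxc8 at 8.83 CPM and Hoxc6 at 8.201 CPM. Hoxa13 and Hoxd13 were at 1.89 and 1.26 CPM. Hoxa genes made up 52.9% and Hoxc genes 36.7% of the Hox UMIs. Among Hoxc genes, Hoxc13 was the only one above 5 CPM in hard keratin cells, and 6 reached that level in the other epithelial cells.

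Macrophages and osteoclasts, which derive from blood cells, had low totals of 32.7 and 10.7 CPM in macrophages and 21.8 and 21.9 CPM in osteoclasts. Their highest gene was Hoxb4, which is known from blood stem cells, shared with Hoxa11 and Hoxa13 in osteoclasts of the Lmx1b library. It was at 7.88 and 4.28 CPM in macrophages and 3.36 and 6.57 CPM in osteoclasts, against 0.0398 and 0.272 CPM in mesenchymal cells.

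Members of one set were also found together in single cells. At 5000 UMIs per cell, 3.86% and 4.47% of mesenchymal cells held both a Hoxa13 and a Hoxd13 UMI, where the product of the single shares is 3.47% and 2.73%. For Hoxd11 with Hoxd13 the shares were 4.10% and 4.47%, with products of 2.27% and 2.32%. In endothelial cells Hoxd8 with Hoxd9 gave 8.36% and 7.82%, with products of 7.36% and 6.17%, and Hoxb7 with Hoxb9 gave 6.41% and 4.53%, with products of 6.53% and 3.84%. The mesenchymal pairs thus lay above the product in both libraries and the Hoxb pair on either side of it, in counts too sparse to be more than a description.

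By Pearson's r of log2(CPM + 1) over 20 pairs of class and library, among 10539 genes, the genes most like Hoxa13 outside the Hox set were Shc2 (0.939), Bmp5 (0.923), Cd248 (0.921), Twist1 (0.915) and Smim1 (0.902). Those most like Hoxd13 were Prrx2 (0.947), Dnm1 (0.944), Clec11a (0.932), Prg4 (0.931) and Lrrc17 (0.924). Those most like Hoxb7 were Hoxd3os1 (0.936), Mmp15 (0.897), Card10 (0.885), Tspan7 (0.863) and Afap1l1 (0.859). Those most like Hoxc10 were Ankrd35 (0.881), Klk11 (0.871), Asprv1 (0.830), Ide (0.805) and Cnfn (0.801). The pairs share libraries and depth, and the values only describe these 20 points. They include the erythroid barcodes of both libraries, which held Lum, a mesenchymal gene, at 5838 and 6754 CPM.

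Of the 9 TALE homeobox genes listed, whose products bind DNA with Hox proteins, 5 were measured between endothelial and mesenchymal cells, and 2 were higher and 1 lower in endothelial cells of both libraries, where 34.1% and 34.6% of all genes were higher and 17.6% lower. Meis3 had 0 UMIs and 0.443 CPM in endothelial cells, against 18.8 and 16.9 CPM in mesenchymal cells, and it was at 23.3 and 19.5 CPM in mural cells. Pbx2 was at 35.5 and 41.9 CPM in endothelial cells against 21.5 and 21.7 CPM in mesenchymal cells, and Pknox1 at 21.2 and 21.7 CPM against 12.9 and 12.6 CPM. Meis1 was at 17.7 CPM in epithelial cells of the Lmx1b library and at 7.78 and 12.1 CPM in hard keratin cells, against 0.0398 and 0.109 CPM in mesenchymal cells.

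Long noncoding genes lie between the Hox genes of each cluster. Of the 12 noncoding genes listed, 8 were in the matrices. In endothelial against mesenchymal cells 4 of 4 measured were higher in the Lmx1b library and 2 of 2 in the Pdgfra library. Of all genes, 34.1% and 34.6% were higher. These counts only describe the matrices. Apart from Hotairm1, at 11.6 and 8.99 CPM in mesenchymal cells, each gene passed the mean of 5 CPM only through its endothelial level. Hottip did not pass it. Hoxd3os1, in the Hoxd cluster, was at 38.5 and 42.8 CPM in endothelial cells and 50.4 and 48.4 CPM in Schwann cells, against 0.558 and 0.545 CPM in mesenchymal cells. Hottip, at the 5′ end of the Hoxa cluster, was at 0 UMIs and 0.222 CPM in endothelial cells against 5.42 and 4.79 CPM in mesenchymal cells. Hotair, in the Hoxc cluster, was at 5.05 CPM in epithelial cells of the Lmx1b library. Where such a gene overlaps a Hox gene, reads of the pair cannot always be told apart.

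Within mesenchyme, the level of the 5′ set varied more than its composition. Mesenchymal cells were clustered again without Hox genes, and each subtype was set against all other mesenchymal cells of its library. As for the classes, a gene under 5 CPM in a subtype or in the other cells was measured only through the side where it was higher. Paralog groups 9 to 13 held most of the Hox UMIs in every subtype compared, and the shares of Hoxd reached 39.6% and 45.6% in tendon-like cells, against 21.7% and 26.02% in mature osteoblasts marked by Bglap.

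Mature osteoblasts had the lowest totals. The Bglap group, 141 and 29 cells, held 128 and 110 CPM of Hox UMIs, against 296 and 257 CPM in the other mesenchymal cells. Of 8 measured Hox genes 7 were lower and none higher in both libraries. Of all genes, 39.3% and 40.8% were lower and 5.51% and 7.56% higher. The Hox genes had a median log2 difference of -1.49 and -1.16, against -0.42 and -0.41 over all genes. Hoxd11 was at 5.12 CPM in Bglap osteoblasts against 31.2 CPM in the other cells of the Lmx1b library, 6.09-fold lower (3.95 to 9.91), and 7.12-fold lower in the Pdgfra library. Hoxd13 was at 14.6 CPM against 49.1 CPM, 3.35-fold lower, and 2.58-fold lower in the Pdgfra library. Hoxa13 was 3.15-fold and 3.90-fold lower. The exception was Hoxa7, which was 1.13-fold and 1.12-fold lower.

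Osteoblasts marked by Gal, 76 and 27 cells, gave totals of 119 and 106 CPM against 281 and 251 CPM. All 8 measured Hox genes were lower in the Lmx1b library, and 6 of 8 were lower and 1 higher in the Pdgfra library. Of all genes, 47.8% and 49.6% were lower and 6.93% and 10.3% higher. Hoxa13 was 2.54-fold and 3.16-fold lower and Hoxd13 2.40-fold and 3.17-fold lower. The values of the Pdgfra library rest on few UMIs, since its 27 Gal cells held 41 Hox UMIs in all. Osteoblast precursors, 145 and 77 cells, lay between, with 206 and 197 CPM against 283 and 258 CPM. In both libraries 3 of 8 were lower and none higher. Of all genes, 15% and 18.7% were lower and 4.15% and 5.22% higher. Hoxa10 was 2.20-fold and 1.61-fold lower and Hoxd11 1.68-fold and 1.82-fold lower. Hoxa11 was 1.05-fold and 1.20-fold higher, and Hoxd13 was at 37.2 and 33.2 CPM, against 44.9 and 41.5 CPM. The count of lower genes was 1 at subtype resolution 1.0 in the Lmx1b library, and 1 with Hox genes allowed in clustering in the Pdgfra library.

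Nail-associated mesenchyme, 42 and 115 cells, had more Hox RNA, with 439 and 397 CPM against 263 and 232 CPM. Of 8 measured Hox genes the Lmx1b library had 5 higher and the Pdgfra library 6, with none lower. Of all measured genes, 30.4% and 23.5% were higher and 14% and 13.4% lower. Hoxa7 was at 57.3 CPM in nail-associated cells against 23.2 CPM in the other cells of the Lmx1b library and at 46.6 CPM against 20.4 CPM in the Pdgfra library, 2.47-fold (1.79 to 3.32) and 2.28-fold (1.78 to 2.91) higher. Hoxa10 was 2.04-fold and 2.42-fold higher and Hoxd11 2.11-fold and 1.66-fold higher. Hoxd13 was 1.54-fold higher in the Lmx1b library and 1.04-fold higher in the Pdgfra library.

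Angpt2 fibroblasts, read only in the Lmx1b library with 66 cells against 5 in the Pdgfra library, had the highest total of the mesenchymal subtypes, 646 CPM against 243 CPM in the other mesenchymal cells. Of 11 measured Hox genes 10 were higher and none lower, where 29.5% of all genes were higher and 11.3% lower. Members such as Hoxa3 and Hoxa5 passed the mean of 5 CPM only through these fibroblasts, so the count only describes the matrices. Hoxa13 was at 106 CPM in Angpt2 fibroblasts against 33.6 CPM in the others, 3.14-fold higher (2.65 to 3.71). Hoxd13 was at 94.5 CPM against 40.0 CPM, 2.36-fold higher (1.98 to 2.81), and Hoxa10 at 127 CPM against 41.3 CPM, 3.06-fold higher (2.62 to 3.57). Genes nearer the 3′ end were also higher there, Hoxa3 at 12.4 CPM against 1.06 CPM and Hoxa5 at 16.7 CPM against 2.00 CPM. The exception was again Hoxa7, at 25.3 CPM against 24.3 CPM. The mural list summed to 2024 CPM in these fibroblasts against 833 CPM in all mesenchymal cells of that library. With limits of 200 genes and 25% mitochondrial UMIs and the cells clustered again, 29 of the 66 cells were named mural and 37 mesenchymal. The part of mural cells in these values was not tested.

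In tendon-like cells, 115 and 86, Hoxd11 was at 41.2 CPM against 24.9 CPM in the other cells of the Lmx1b library and at 53.1 CPM against 26.5 CPM in the Pdgfra library, 1.65-fold (1.36 to 2.01) and 2.01-fold (1.64 to 2.44) higher, and Hoxa7 was 1.53-fold and 1.62-fold lower. With 2 of 8 and 3 of 8 Hox genes past 1.5-fold, against 17.6% and 14.5% of all genes, the tendon-like cells held more Hoxd11 and less Hoxa7. These calls depended on the setting: the Hoxd11 fold was 1.497 in the Lmx1b library as a mean over cells and 1.15 in the Pdgfra library at subtype resolution 1.0, and the Hoxa7 fold was 0.715 and 0.723 with Hox genes allowed in clustering. Blastema cells marked by Mest and Gldn, 115 and 169, had 0 of 8 and 1 of 8 Hox genes past 1.5-fold, where 17.2% and 9.5% of all genes were. Their totals were 273 and 235 CPM, against 268 and 257 CPM in the other mesenchymal cells. Mmp13 fibroblasts had 2 of 8 and 1 of 9 higher and none lower, beside 13.2% and 12.6% of all genes higher and 7.58% and 15.7% lower. Cycling cells had 1 of 8 and 1 of 9 higher and none lower, beside 16.2% and 13.2% of all genes higher and 13.1% and 13.8% lower. A subtype led by Pi16 and Mgp, 50 cells of the Lmx1b library, had 4 of 9 higher and none lower, beside 20.8% and 12.7% of all genes, and Hoxa10 at 113 CPM against 43.8 CPM.

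**Figure D4:**
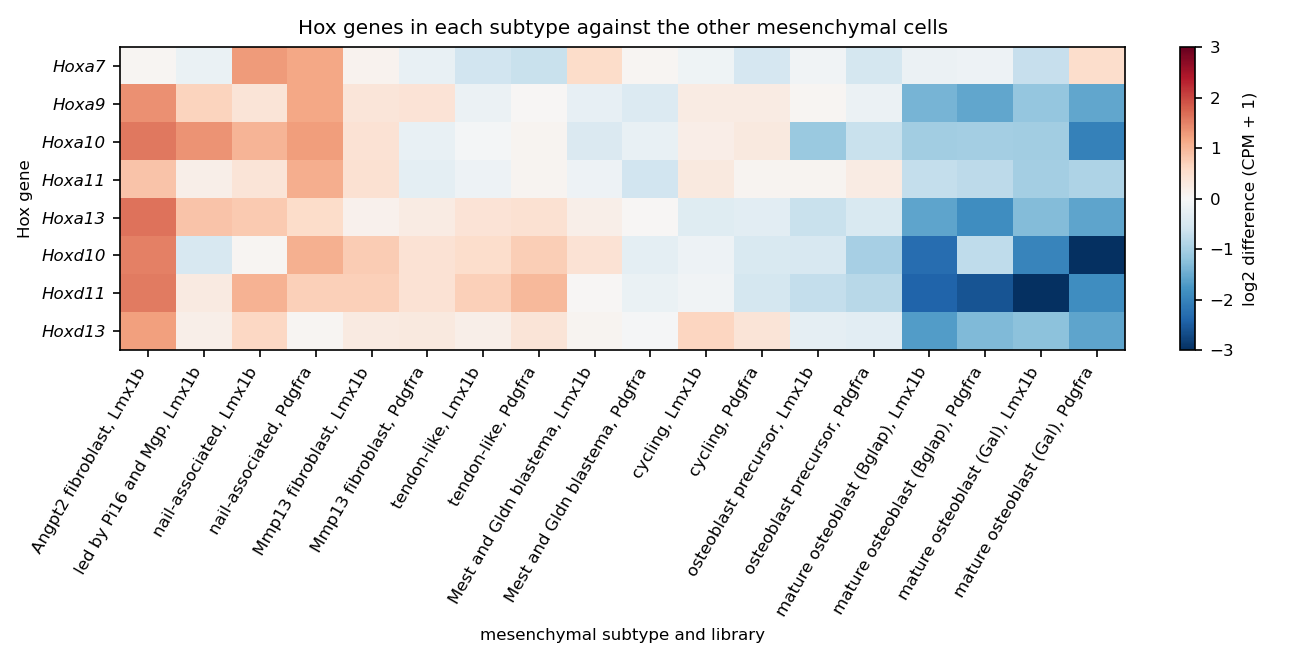
Log2 difference of CPM + 1 between each mesenchymal subtype and all other mesenchymal cells of its library, for 5 Hoxa and 3 Hoxd genes (rows), with red for higher in the subtype and values beyond 3 in either direction drawn at 3. The columns run from Angpt2 fibroblasts and nail-associated cells, red in most rows, to the mature osteoblasts, blue in most rows, with Hoxa7 close to 0 in the Bglap group.

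Between the libraries, the Hox levels of the same class were mostly within 1.5-fold. In mesenchymal cells 1 of 8 measured Hox genes was past it, where 5.82% of all genes were. It was Hoxa11, at 32.8 CPM in the Lmx1b library and 20.1 CPM in the Pdgfra library, 1.63-fold higher (1.44 to 1.85). Within subtypes it was 1.94-fold higher (1.47 to 2.56) in blastema cells and 2.69-fold (1.40 to 5.77) in Mmp13 fibroblasts, but 1.08-fold in nail-associated cells. Hoxa13 and Hoxd13 gave 0.954-fold and 1.08-fold. In mural cells 1 of 7 was past 1.5-fold (14.5% of all genes), Hoxd13 at 1.69-fold with an interval of 0.916 to 3.30, in cartilage 0 of 7 (13% of all genes), and in endothelial cells 1 of 16 (8.32% of all genes), Hoxb2, which was 1.55-fold higher (1.02 to 2.44). In hard keratin cells 5 of 8 Hox genes were past 1.5-fold beside 44.1% of all genes, but the class values of the Lmx1b library rest in large part on the 16 cells with high Col1a1 and Lum, and Hoxc13 and Hoxa9 had overlapping intervals in the cluster without them. Schwann cells had 4 of 7 past 1.5-fold beside 33.5%. Animal, line, day and library cannot be told apart in these comparisons.

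The tdTomato label divided mesenchymal cells unequally. At 1600 CPM or more of tdTomato, 69 of 908 mesenchymal cells (7.60%) were labelled in the Lmx1b library and 497 of 578 (86.0%) in the Pdgfra library. The label followed subtype: 69.0% and 97.4% of nail-associated cells carried it, 24.3% and 94.7% of blastema cells, and 2.13% and 41.4% of Bglap osteoblasts.

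In labelled against unlabelled mesenchymal cells of the Lmx1b library, 1 of 8 measured Hox genes was past 1.5-fold higher and none lower, where 16% of all genes were higher and 8.35% lower. Hoxa7 was at 46.7 CPM in labelled cells against 22.8 CPM in unlabelled cells, 2.05-fold higher (1.58 to 2.61). Weighted to the same mix of subtypes, Hoxa7 was 1.28-fold higher. That weighting held only the 2 subtypes with enough cells on both sides, blastema and nail-associated cells. With cells labelled at 1 tdTomato UMI or more, Hoxa7 was at 0.887-fold, with 0 Hox genes past 1.5-fold. In the Pdgfra library 6 of 8 were higher in labelled cells and none lower, where 21.4% of all genes were higher and 6.9% lower. Hoxd11 was at 33.3 CPM in labelled cells against 8.48 CPM in unlabelled cells, 3.92-fold higher (2.49 to 6.56), and Hoxa13 at 43.1 CPM against 18.7 CPM, 2.30-fold higher (1.68 to 3.22). Weighted to the same mix of subtypes, 3 genes were past 1.5-fold, Hoxd11 was 1.74-fold higher, Hoxa13 was 1.30-fold higher, and Hoxd13, 1.57-fold higher before, was at 0.992-fold. That weighting held only 3 subtypes: cycling cells, Bglap osteoblasts and osteoblast precursors. Blastema, nail-associated and tendon-like cells, nearly all labelled, were left out of it. Within blastema cells of the Lmx1b library Hoxd13 was at 23.3 CPM in labelled cells against 52.8 CPM in unlabelled cells, 2.26-fold lower (1.39 to 3.87), while within nail-associated cells it was at 80.7 CPM against 40.0 CPM, 2.02-fold higher (1.04 to 4.21).

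**Figure D5:**
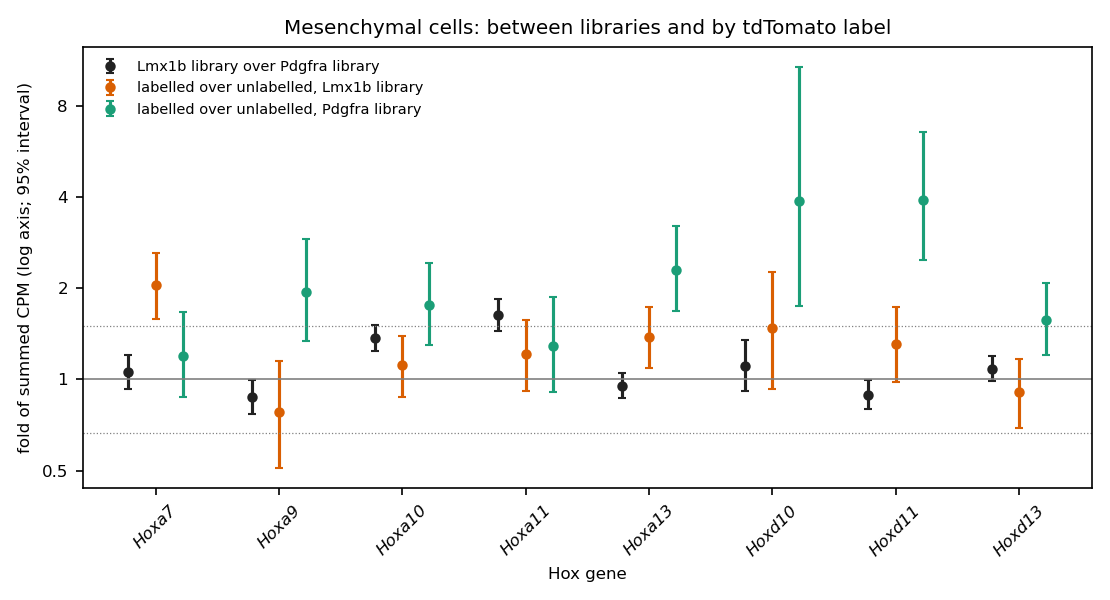
Fold of summed CPM in mesenchymal cells on a log axis, with exact 95% intervals as bars and dotted lines at 1.5-fold in either direction, for the Lmx1b over the Pdgfra library and for labelled over unlabelled cells of each library. Between libraries only Hoxa11 lies past 1.5-fold at 1.63, while labelled cells of the Pdgfra library reach 3.92 for Hoxd11 and those of the Lmx1b library 2.05 for Hoxa7.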

How the data were processed

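Cells came from regenerating mouse digit tips of 2 reporter lines, 1 droplet library each. Per the file headers the authors made the deposited matrices with Cell Ranger 4.0.0; they hold raw UMI counts per gene and barcode, and per the labels reads were mapped to mm10 with tdTomato added. From the counts, barcodes under 500 genes or over 10% mitochondrial UMIs and the highest-scoring putative doublets (46 and 66 of the others) were left out, leaving 2747 of 5991 and 2308 of 5032 barcodes, from matrices of 66867027 and 49084751 UMIs. Cells were clustered with scanpy 1.11.5 on 2000 variable genes other than Hox genes, 30 components and 15 neighbours at resolution 1.0, and mesenchymal cells again at 0.6. Clusters were named from marker lists. UMIs were summed per class, which 3′ counting does not scale with transcript length, and expressed as CPM. Intervals are exact 95% Poisson, Clopper-Pearson or ratio-of-Poisson intervals (scipy 1.17.1) and cover counting error only. A gene was measured at a mean of 5 CPM over both sides and counted past 1.5-fold; a gene was named as different where the interval also left out 1, and classes were described by their 5 highest Hox genes with Hoxa13, Hoxd13 and Hoxc13. Subtypes with fewer than 25 cells were not compared. With no replicate, no test or p-value was computed, and the procedure was tested on simulated counts. The Hox genes, the other gene lists, the marker lists and the thresholds were chosen with earlier results of these data known. Other filters, resolutions, scalings and labelling thresholds were tried as alternatives. Cells without a name entered no comparison. Erythroid barcodes, with medians of 1225 and 1378 UMIs, entered only the correlations over 20 pairs of class and library, and their Hox totals are given beside the macrophage shares. The values of some listed genes are not reported here.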

Additional observations from a re-analysis of the deposited data

How the results depend on the processing

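Over 80 results and 518 alternative values, 448 kept their direction and their side of 1.5-fold, or stayed within counting error, 24 went under 1.5-fold, 2 went past it, 40 moved and 4 turned round. With 1 library per line no replicate could be left out. No paired analysis was possible because each line has 1 library and no replicate number. The alternatives on the 20 highest genes, the doubtful clusters, the kept classes and the bone subtypes were chosen after seeing the data. The causes of the changes below were not tested.

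With the stricter limits of 1000 genes and 5% mitochondrial UMIs, the mural over mesenchymal fold in the Lmx1b library was 0.746 for Hoxd11 and 0.833 for Hoxd13. The cartilage over mesenchymal fold of Hoxa10 in the Pdgfra library was 0.703 under that filter, with classes rebuilt or kept, 0.689 at resolution 2.0, 0.752 with the per-cell marker gate and 0.677 without the 20 highest genes. The share of groups 9 to 13 in endothelial cells of the Pdgfra library was 40.4% under the strict filter and 39.3% with each library clustered on its own. In mesenchymal cells of the Lmx1b library it was 83.5% with the gate and 86.4% as a mean over cells, and in those of the Pdgfra library 82.95% under the strict filter, 82.9% with classes kept, 82.5% with doublets kept and 83.2% with the gate. In mural cells of the Lmx1b library it was 78.5% with 200 genes and 25% mitochondrial UMIs, 79.7% under the strict filter, 66.1% with classes kept, 78.3% at resolution 2.0, 77.6% with the gate, 79.0% with libraries clustered alone and 72.0% as a mean over cells. In those of the Pdgfra library it was 78.3% under the strict filter, 75% with classes kept and 76.6% with the gate.

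Among subtypes, 1 Hox gene was lower in osteoblast precursors of the Lmx1b library at resolution 1.0 and 1 in those of the Pdgfra library with Hox genes allowed in clustering. In nail-associated cells of the Lmx1b library the Hoxa13 fold was 1.38 as a mean over cells and 1.497 without the 20 highest genes, and the Hoxd13 fold 1.33 without them. The Hoxd11 fold there was 1.34 in the Pdgfra library as a mean over cells. In tendon-like cells the Hoxa7 fold was 0.715 (Lmx1b library) and 0.723 (Pdgfra library) with Hox genes allowed, and 0.700 in the Lmx1b library as a mean over cells. The Hoxd11 fold was 1.497 in the Lmx1b library as a mean over cells and 1.15 in the Pdgfra library at resolution 1.0. Between libraries 17 Hox genes were past 1.5-fold with no minimum CPM.

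For labelled over unlabelled cells of the Lmx1b library, 2 Hox genes were past 1.5-fold at 3200 CPM of tdTomato, 2 without bone subtypes and 0 at 1 tdTomato UMI or more, where Hoxa7 was at 0.887-fold; weighted to the same mix it was at 1.28-fold. In the Pdgfra library 3 were past 1.5-fold at 1 UMI and 3 at the same mix. There Hoxa10 was at 0.837-fold at 1 UMI and 0.848-fold at the same mix, Hoxd11 at 1.48-fold at 1 UMI, and Hoxd13 at 1.31-fold at 3200 CPM, 0.992-fold at the same mix and 1.11-fold without bone subtypes.

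Shares of cells followed depth. At 2000 UMIs and without thinning, Hoxa13 was found in 7.89% and 52.3% of mesenchymal cells of the Lmx1b library and 7.96% and 61.1% of those of the Pdgfra library. In mural cells of the Lmx1b library it was found in 12.0% and 46.8%, and in 34.7% of those of the Pdgfra library without thinning. Hoxd13 was found in 9.95% and 53.3% of mesenchymal cells of the Lmx1b library and 5.79% and 51.6% of those of the Pdgfra library. In mural cells it was found in 0.307% and 6.68% in the Lmx1b library and 0% at 2000 UMIs in the Pdgfra library.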

Other observations

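Genes that flank the Hox clusters and limb identity genes gave values outside the comparisons above. Of 13 flanking genes listed, 12 were in the matrices and 7 were measured between endothelial and mesenchymal cells, with 3 higher and 1 lower in the Lmx1b library and 4 higher and 1 lower in the Pdgfra library. Of all genes, 34.1% and 34.6% were higher there and 17.6% lower. Lnp, listed under its older symbol and next to the 5′ end of the Hoxd cluster, was at 9.98 and 10.2 CPM in endothelial cells against 26.5 and 30.7 CPM in mesenchymal cells. Skap2, beyond the 3′ end of the Hoxa cluster, was at 62.0 and 56.7 CPM in endothelial cells against 21.7 and 14.5 CPM in mesenchymal cells. Both genes were chosen from the list after their values were seen. Evx2, beside Hoxd13, was at 2.23 CPM in mesenchymal cells of both libraries.

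Tbx4, a hindlimb gene in mouse embryos, was at 8.85 and 9.91 CPM in mural cells against 36.0 and 36.1 CPM in mesenchymal cells, and at 0.599 and 0.665 CPM in endothelial cells. Tbx5, its forelimb counterpart, was at 0.279 and 0.0545 CPM in mesenchymal cells. Pitx1, which acts before Tbx4 in the hindlimb, was at 21.95 and 11.5 CPM in mural cells against 22.9 and 28.0 CPM in mesenchymal cells. Of 11 genes of Polycomb, Trithorax and chromatin-loop complexes listed, 9 were measured between endothelial and mesenchymal cells, and 4 were higher and none lower in endothelial cells of both libraries, beside 34.1% and 34.6% of all genes higher. Kmt2a was at 84.96 and 107 CPM against 42.1 and 52.2 CPM, Ctcf at 79.5 and 97.5 CPM against 47.4 and 55.6 CPM, and Suz12 at 50.0 and 54.9 CPM against 30.2 and 28.3 CPM.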
